A study of Mus musculus with 4 samples.

Results

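Neurod2, Neurod6 and Bhlhe22 were followed through single-cell RNA sequencing of the mouse cerebral cortex. They are 3 of the 57126 features in each count matrix and were found by gene symbol alone (Neurod2, ENSMUSG00000038255; Neurod6, ENSMUSG00000037984; Bhlhe22, ENSMUSG00000025128). The study compared cortex of wild-type mice with cortex of mice lacking Tsku, which encodes the secreted proteoglycan Tsukushi, in mid-gestation embryos (embryonic day 14.5, E14.5) and on the day of birth (P0). Each of the 4 groups is 1 animal and 1 library: E14.5 wild type, E14.5 labelled knockout, P0 wild type and P0 knockout, all dissociated with trypsin and processed with the Asteria bead-coupling kit. There are no replicates, so no test across animals was possible, every comparison is between 2 animals, and every 95% interval covers counting error only. The sources used here do not give the strain or the design of the Tsku allele.

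The 3 genes encode basic helix-loop-helix (bHLH) transcription factors, proteins that bind DNA as dimers at short palindromic sites called E-boxes. In the cortex the proneural factor Neurog2 acts in dividing progenitors, Neurod1 follows as cells leave the cycle, and Neurod2 and Neurod6 come on in the excitatory projection neurons that they give rise to. Neurod2 and Neurod6 are close relatives that act in neuronal differentiation and axon growth, while Bhlhe22 (also called Bhlhb5) is a repressor that works with its partner Prdm8 in neuron identity and in the routing of cortical axons.

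Because these factors bind E-boxes, the DNA before their own start sites is shown for the members whose promoter is in the RefSeq table (GRCm38.p6), 2 of the 3. These are the 250 bases before the start, written 5′ to 3′ along the gene, with each CANNTG in capitals. The Neurod2 stretch lies at chr11:98329646-98329895 and the Neurod6 stretch at chr6:55681264-55681513, both on the minus strand.
Neurod2: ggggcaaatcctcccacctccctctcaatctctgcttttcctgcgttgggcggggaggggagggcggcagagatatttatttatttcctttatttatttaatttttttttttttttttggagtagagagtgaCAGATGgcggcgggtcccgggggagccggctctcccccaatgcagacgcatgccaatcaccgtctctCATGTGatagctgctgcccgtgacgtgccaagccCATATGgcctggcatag
Neurod6: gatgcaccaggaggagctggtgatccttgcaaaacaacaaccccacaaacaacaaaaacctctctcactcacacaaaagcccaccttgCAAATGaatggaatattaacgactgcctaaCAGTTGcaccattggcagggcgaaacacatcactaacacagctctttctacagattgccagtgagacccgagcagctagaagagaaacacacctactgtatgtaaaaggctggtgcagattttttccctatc
The Neurod2 stretch holds 3 E-boxes and the Neurod6 stretch holds 2. CANNTG is its own complement, so 1 search covers both strands. Of the 32851 promoter stretches of this length in the table, 66.2% hold at least 1 CANNTG, with a median of 1. CAGATG, counted with its complement CATCTG, is in the Neurod2 stretch and in 14.4% of all stretches, and it is not in the Neurod6 stretch. A match is a description of these letters and not a measured site.

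Tsku itself was counted first, as a check of the labels. It had 54 counts in E14.5 wild type, 74 in the E14.5 library labelled knockout, 42 in P0 wild type and 0 in P0 knockout. In CPM (counts scaled to 1e6 per library or gate sum) these are 9.63, 5.14, 6.95 and 0, and 0 allows up to 0.337 CPM, which is 3 counts of the library. At E14.5, Tsku was counted in 46 of 620 wild-type barcodes and in 74 of 4107 barcodes of the labelled library. The Tsku counts of the E14.5 library labelled knockout go against its label, unless the allele leaves a countable transcript, which the sources used here do not say. The library is called by its label throughout, and every direction drawn from it rests on that label. By sex-linked genes the E14.5 animals were not alike: Xist had 3 counts in wild type and 6707 in the labelled library, and Ddx3y had 496 and 1, while both P0 animals carried Ddx3y. Barcodes kept after filtering numbered 620, 4107, 1047 and 1436 in the order above, at median depths of 7345.5, 2829, 4807 and 5060 counts; the E14.5 pair thus differs in barcode number and in depth. At most 2 barcodes were shared by any pair of libraries. Emx1, which marks the dorsal cortex, was at 34.4 to 80.7 CPM.

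To place the members in cell types, each barcode was thinned to 1500 counts and passed 1 of 9 gates when the summed count of that gate's marker list was at least 2 and led every other list by at least 2. The members are in no list. The projection neuron gate used a list of 6 genes, among them Tbr1, Fezf2, Slc17a6, Slc17a7 and Nrn1, and it took 127 barcodes of E14.5 wild type, 669 of the E14.5 library labelled knockout, 186 of P0 wild type and 126 of P0 knockout. Of the thinned barcodes 64.9% to 67.5% passed a gate. The gating keeps lists of other types low in this gate. The intermediate progenitor list summed to 134, 142, 139 and 115 CPM, the inhibitory neuron list summed to 12.8, 43.3, 24.2 and 37.9 CPM and the radial glia and astrocyte list to 40.1, 59.6, 70.7 and 105 CPM, against 1236 to 1714 CPM for the projection neuron list, and their part in the results was not tested.

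Of the 3 members, Neurod6 was the one whose level in projection neurons differed most between the ages, while Neurod2 and Bhlhe22 stayed within narrower ranges with this gating. Neurod6 stood at 2227 CPM (95% Poisson interval 2140 to 2318) in E14.5 wild type, at 1663 CPM (1612 to 1716) in the E14.5 library labelled knockout, at 1090 CPM (1026 to 1157) in P0 wild type and at 851 CPM (784 to 923) in P0 knockout. Both E14.5 libraries lay above both P0 libraries, and no interval met its neighbour. Neurod2 stood at 1445 CPM (1375 to 1518), 1267 CPM (1223 to 1313), 1458 CPM (1384 to 1535) and 1364 CPM (1278 to 1455) in the same order. The library labelled E14.5 knockout was the lowest for Neurod2, and its interval overlapped that of P0 knockout. Bhlhe22 stood at 454 CPM (415 to 496), 434 CPM (408 to 461), 449 CPM (408 to 492) and 484 CPM (433 to 539), and all 4 intervals overlapped. These levels are not per length, so they order the libraries for a gene and not the genes.

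**Figure D1:**
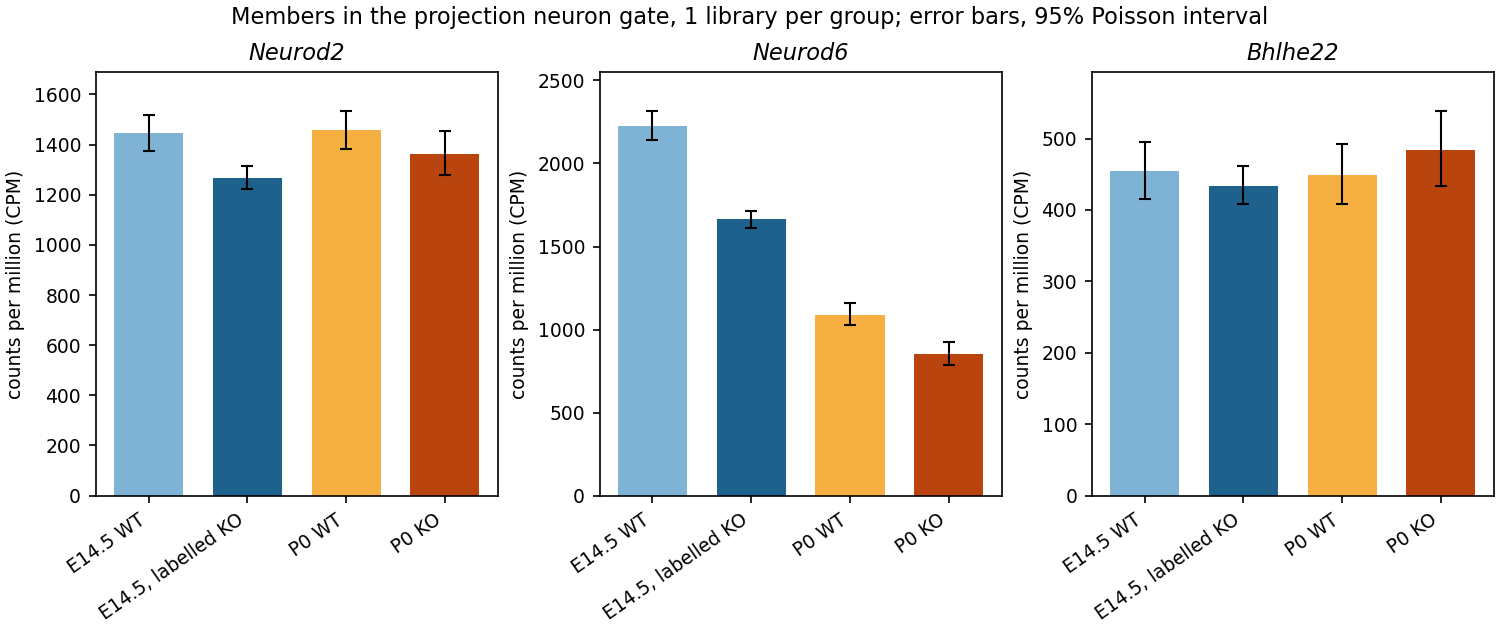
Level of Neurod2, Neurod6 and Bhlhe22 in barcodes of the projection neuron gate, in CPM, with 1 bar per library and its own axis from 0 for each gene; error bars are 95% Poisson intervals. Neurod6 steps down from 2227 CPM in E14.5 wild type to 851 CPM in P0 knockout, while Bhlhe22 lies between 434 and 484 CPM in all 4 libraries.

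Between the ages, Neurod6 in the projection neuron gate was 0.489 times its E14.5 level at P0 in wild type, a log2 ratio of -1.03 (95% interval -1.14 to -0.93). In the pair carrying the knockout label it was 0.512 times, a log2 ratio of -0.97 (-1.09 to -0.84). Neurod2 gave 0.01 (-0.09 to 0.12) and 0.11 (-0.00081 to 0.21), and Bhlhe22 gave -0.02 (-0.21 to 0.17) and 0.16 (-0.02 to 0.34), so 2 of the 3 members had intervals that reached 0 in each pair. Past 2-fold in either direction were 1 of 3 members in wild type, where 9.11% of 8169 measured genes were, and 0 of 3 in the labelled pair, where 16.6% of 9133 genes were. The age ratio of Neurod6 was negative in all 13 alternatives of each pair, from -1.24 to -0.92 in wild type and from -1.08 to -0.87 in the labelled pair, with an interval clear of 0 in the 12 that give one. Among genes with at least 300 counts, 1.85% in wild type and 5.50% in the labelled pair had a ratio as low. Over the alternatives Neurod2 ranged from -0.19 to 0.08 in wild type and from -0.06 to 0.16 in the labelled pair. Its interval was clear of 0 in 1 of 12 and 5 of 12. Bhlhe22 ranged from -0.30 to 0.14 in wild type and from -0.0042 to 0.42 in the labelled pair. Its interval was clear of 0 in 3 of 12 and 4 of 12.

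Between genotypes, Neurod6 was again the member whose level differed most. Its level in the E14.5 library labelled knockout was 0.747 times that of E14.5 wild type, a log2 ratio of -0.42 (-0.49 to -0.35), and its level in P0 knockout was 0.781 times that of P0 wild type, a log2 ratio of -0.36 (-0.50 to -0.21). Neurod2 gave -0.19 (-0.28 to -0.10) at E14.5 and -0.10 (-0.22 to 0.02) at P0. Bhlhe22 gave -0.07 (-0.22 to 0.09) and 0.11 (-0.10 to 0.32), neither distinguishable from 0 at this depth with this gating. None of the 3 members passed 2-fold at E14.5 or P0, where 6.5% of 9341 and 3.43% of 7665 measured genes did. Among genes with at least 300 counts in the pair, 10.3% at E14.5 and 8.40% at P0 had a ratio as low as that of Neurod6, so ratios of this size are not rare between these libraries.

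Some ways of gating moved these smaller ratios outside their counting intervals. At E14.5, 7, 10 and 11 of 14 alternatives stayed inside for Neurod6, Neurod2 and Bhlhe22. At P0, 11, 10 and 12 of 13 did. With 1 gene fewer in the gate list, which took the gate from 186 to 79 barcodes in P0 wild type and from 126 to 74 in P0 knockout, the P0 ratio of Neurod6 was -0.10 (-0.31 to 0.11) and that of Neurod2 turned to 0.18. Another random draw of the thinning, which changes who enters the gate, moved the E14.5 ratio of Neurod6 to -0.31 and that of Neurod2 to -0.09, and turned that of Neurod2 at P0 to 0.06. The sign of the Neurod6 genotype ratio was negative in all 14 alternatives at E14.5 and all 13 at P0. That of Bhlhe22 was not constant at either age: it was negative in 11 of 14 at E14.5 and positive in 12 of 13 at P0. The Bhlhe22 values ranged from -0.24 to 0.14 at E14.5 and from -0.03 to 0.38 at P0. Of the alternatives that give an interval, it was clear of 0 in 3 of 13 and 4 of 12. The 4 comparisons share libraries, so their values are not independent of each other.

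**Figure D2:**
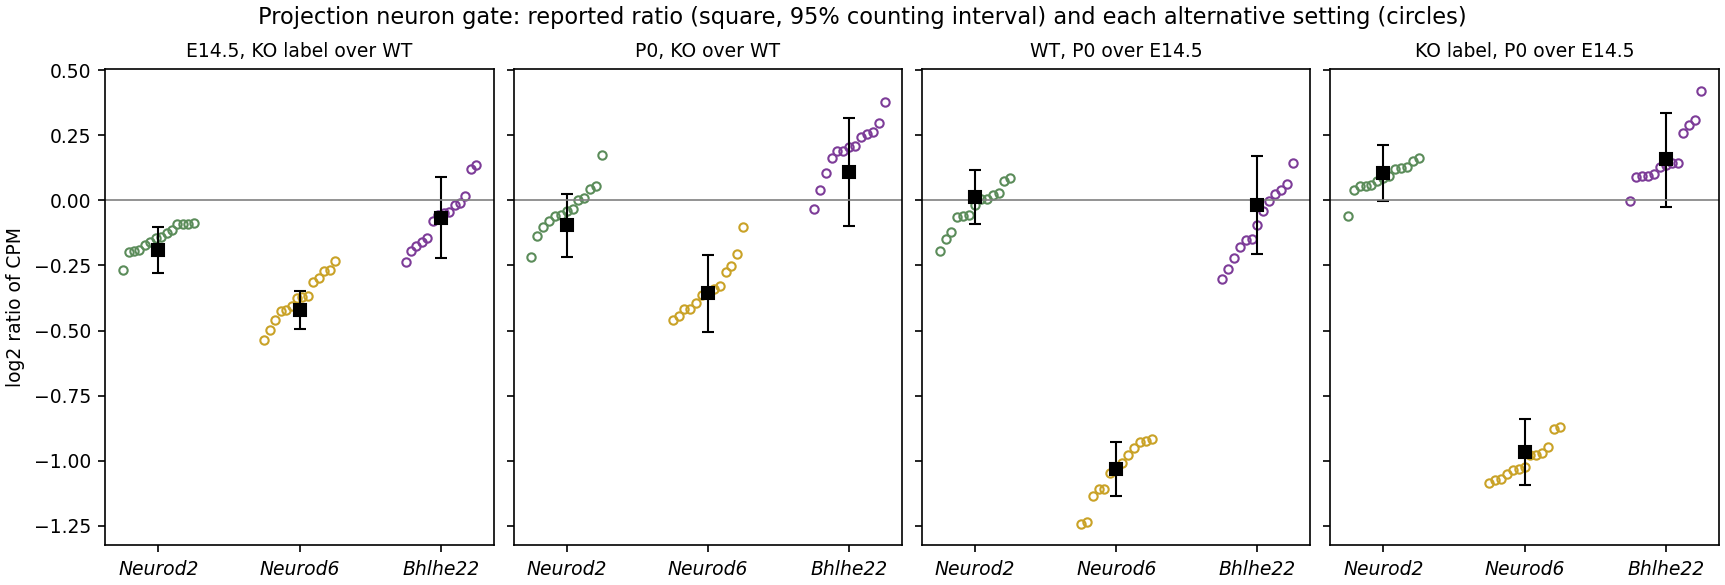
Log2 ratio of the level in the projection neuron gate for each member in the 4 comparisons of libraries; black squares are the reported ratio with its 95% counting interval and open circles are the alternative settings. Neurod6 lies near -1 between the ages in every setting, whereas the circles of Neurod2 lie on both sides of 0 in 3 of the 4 comparisons and those of Bhlhe22 in all 4.

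The neurons behind the gate were not the same mix in each library. Tbr1 gave 19.1% of the thinned counts of the gate list in E14.5 wild type, 31.2% in the E14.5 library labelled knockout, 18.1% in P0 wild type and 28.8% in P0 knockout. Within the gate, deep layer genes (Bcl11b, Sox5, Foxp2, Tle4, Crym, Ldb2) led in 42, 430, 6 and 0 barcodes, and upper layer genes (Cux1, Cux2, Pou3f2, Pou3f3, Unc5d, Inhba) led in 55, 97, 168 and 112. The Tbr1 share did not follow this split: it was 28.8% in P0 knockout, where deep layer genes led in 0 barcodes. Neurod6 was lower in the E14.5 library labelled knockout within each kind, at 1723 against 2079 CPM where deep layer genes led and at 1751 against 2352 CPM where upper layer genes led. Those log2 ratios were -0.27 (-0.38 to -0.16) and -0.43 (-0.58 to -0.27). At P0 only the upper kind had enough barcodes, and Neurod6 stood there at 862 CPM in knockout and 1091 CPM in wild type, a log2 ratio of -0.34 (-0.50 to -0.18). Between the ages, Neurod6 within the upper kind gave log2 ratios of -1.11 in wild type and -1.02 in the labelled pair. The upper kind made up 43.3% and 14.5% of the gate at E14.5 and 90.3% and 88.9% at P0, wild type first. Whether it holds the same kind of cell at both ages was not tested. Neurod2 in upper layer barcodes was 1639, 1503, 1505 and 1442 CPM in the library order used above, and Bhlhe22 was 427, 373, 446 and 499 CPM. Barcodes of the gate with a thinned count of Neurod1, the factor before the members, held Bhlhe22 at 354, 562, 348 and 466 CPM, and those without at 479, 407, 468 and 489 CPM, so the E14.5 library labelled knockout was the 1 library where Bhlhe22 was higher beside Neurod1.

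Counts of Neurod2 and Neurod6 were spread over most barcodes of the projection neuron gate, and those of Bhlhe22 over fewer. At 1500 counts per barcode, Neurod2 was counted in 85.0%, 82.7%, 86.6% and 75.4% of them, with exact binomial intervals of 77.6 to 90.7%, 79.6 to 85.5%, 80.8 to 91.1% and 66.9 to 82.6%. Neurod6 was counted in 89.8%, 85.2%, 69.4% and 61.1%, again lower in both P0 libraries than in both E14.5 libraries. Bhlhe22 was counted in 44.9%, 41.6%, 50.5% and 43.7%. All 3 members were counted together in 38.6%, 32.3%, 33.3% and 16.7% of barcodes, and none of them in 3.15%, 4.63%, 4.301% and 7.94%. Neurod2 without Neurod6 was seen in 6.30% and 8.82% of barcodes at E14.5, and in 24.2% and 28.6% at P0. Without thinning, where depth differs between libraries, Neurod2 was counted in 91.8% to 98.4% and Bhlhe22 in 58.3% to 78.6%. Neurod6 was then counted in 96.9%, 92.4%, 95.2% and 88.9%, so P0 wild type lay above the E14.5 library labelled knockout. A barcode without a thinned count of a gene can thus hold it at full depth. In the inhibitory neuron gate, whose cells should lack the 3 genes, the thinned shares were 0.633% to 8.68%, with 0 of 114 barcodes for Neurod6 in E14.5 wild type, which allows up to 2.63% at that thinned depth (3 barcodes of 114), against 3.51% with a count at full depth. The gate had median depths of 2415 to 6020.5 counts against 3032 to 7039 in the projection neuron gate.

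Barcodes of the intermediate progenitor gate (Eomes, Neurog1, Neurog2, Mfap4), the dividing cells that give rise to projection neurons, already held Neurod2 and Neurod6. Neurod6 stood there at 736, 901, 527 and 285 CPM, which is 33.0%, 54.2%, 48.3% and 33.5% of its projection neuron level. Neurod2 stood at 375, 517, 382 and 177 CPM, or 26.0%, 40.8%, 26.2% and 13.0%. P0 knockout was the lowest library for both, and the E14.5 library labelled knockout was the highest. Bhlhe22 had few counts in this gate: 11, 117, 16 and 43, or 6.19%, 25.7%, 18.4% and 22.8% of its projection neuron level. These sums rest on 46, 327, 39 and 61 barcodes, which also held projection neuron markers at 49.1% to 59.2% of the level in the projection neuron gate, and the part of newborn neurons in them was not tested.

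At P0 the intermediate progenitor gate of knockout held less Neurod2 and Neurod6 than that of wild type. The log2 ratios were -1.11 (-1.60 to -0.61) for Neurod2, from 74 and 69 counts, and -0.88 (-1.29 to -0.48) for Neurod6, from 102 and 111 counts. Both stayed negative in the 9 alternatives run, from -1.34 to -0.54 and from -1.28 to -0.61, with an interval clear of 0 in 8 of 9 for Neurod2 and 9 of 9 for Neurod6. Neurod1, the factor before them in the cascade, stood at 140 CPM in P0 wild type and 455 CPM in P0 knockout in the same barcodes, and the mitosis genes Mki67 and Top2a summed to 982 and 1162 CPM. Of the 3 members 1 was past 2-fold, where 7.89% of 4460 genes measured in this gate were. At E14.5 the ratios were 0.46 (0.19 to 0.73) for Neurod2, 0.29 (0.10 to 0.49) for Neurod6 and 1.99 (1.09 to 3.03) for Bhlhe22, with 1 of 3 members past 2-fold against 9.06% of 7298 genes. The size of these E14.5 ratios was not steady. With another draw of the thinning they were 0.07, 0.12 and 0.62, and without the 5% of barcodes with the most counts -0.03, 0.04 and 0.73. Over the 9 alternatives they were positive in 8, 9 and 9, with an interval clear of 0 in 4, 6 and 5. Between the ages in the labelled pair, Neurod2 and Neurod6 gave -1.54 and -1.66 and Bhlhe22 gave -0.01, so 2 of 3 members were past 2-fold against 14.7% of 7414 genes. With a margin of 1 the Neurod2 ratio was -0.91, no longer past 2-fold. In wild type they gave 0.03, -0.48 and 1.56, so 1 of 3 was, against 11.3% of 4320 genes. That 1 was Bhlhe22, on 16 and 11 counts, and its ratio turned negative in 4 of 9 alternatives, down to -1.24. Neurod2 ranged from -0.76 to 0.25 over the alternatives and Neurod6 from -0.80 to 0.0067.

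Outside this lineage the members were mostly lower, with counts in some gates and 0 in others. In the inhibitory neuron gate (114, 853, 158 and 132 barcodes) Neurod2 stood at 35.9, 72.5, 14.4 and 28.7 CPM, or 2.48%, 5.72%, 0.987% and 2.10% of the projection neuron level. Neurod6 stood at 11.1, 102, 17.0 and 16.6 CPM, or 0.5003%, 6.15%, 1.56% and 1.95%, and Bhlhe22 at 2.73%, 6.41%, 0.875% and 2.49%. The library labelled E14.5 knockout was the highest for all 3 genes. In the pooled gates of microglia, endothelium and fibroblasts (37, 208, 49 and 83 barcodes), which have no neuronal origin, Neurod2 was at 1.39%, 6.95%, 1.32% and 5.89%, Neurod6 at 0.565%, 6.59%, 0.663% and 3.67%, and Bhlhe22 at 0.554%, 7.87%, 0 and 2.15% of the projection neuron level. For Bhlhe22 in P0 wild type, 0 counts there allow up to 1.61%. The pool joins unlike gates: in the E14.5 library labelled knockout Neurod2 and Neurod6 stood at 19.99% and 17.3% in the microglia gate, where 1 barcode held 15 of the 45 Neurod2 counts, and at 1.58% and 1.21% in the endothelial gate. In P0 knockout Neurod2 stood at 10.9% in the endothelial gate and had 0 counts in the fibroblast gate, which allows up to 1.69%.

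**Figure D3:**
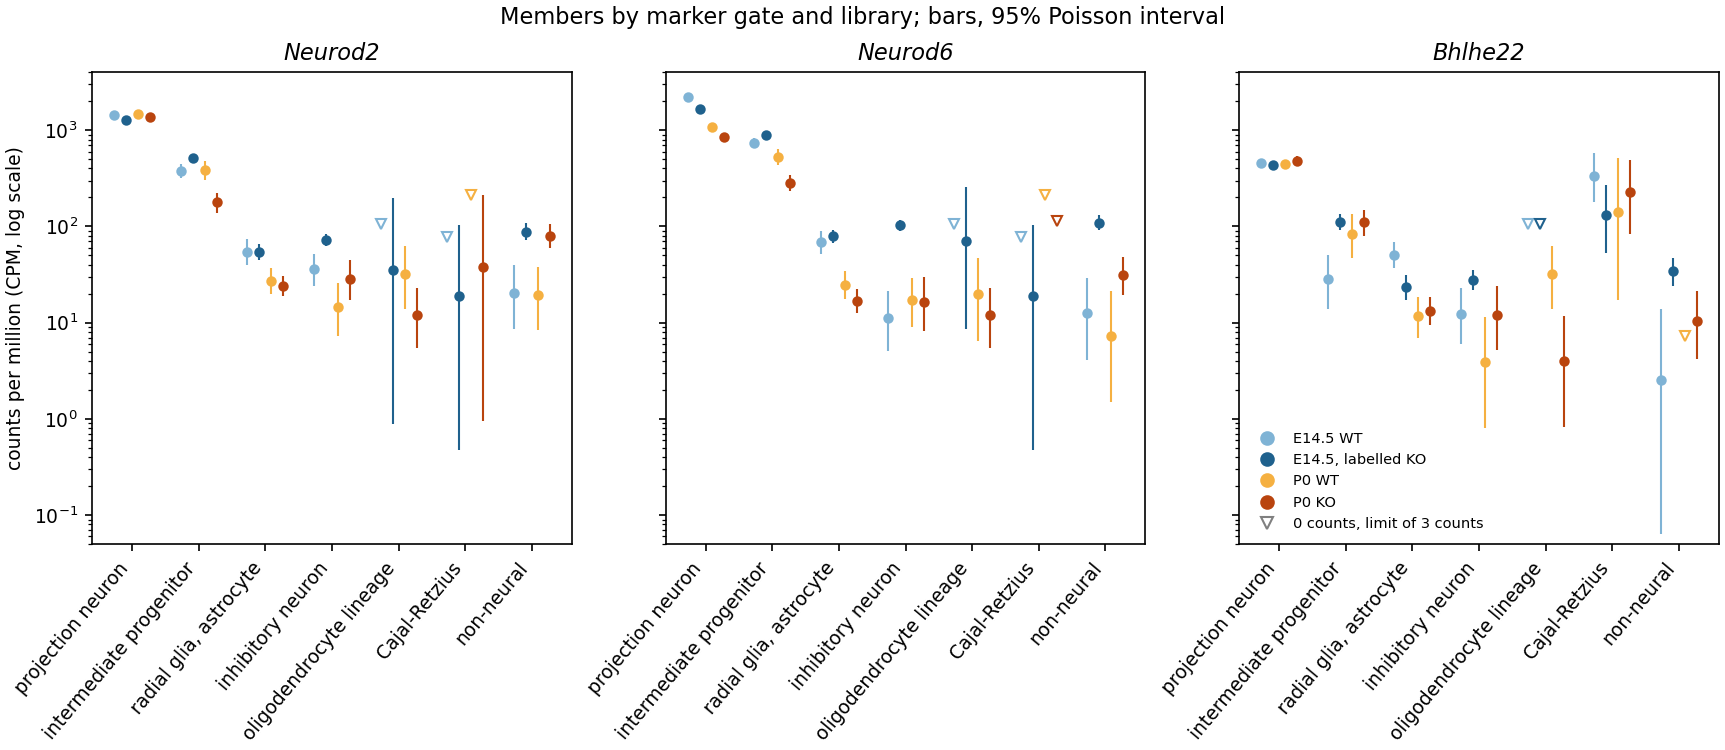
Level in CPM (log scale) of each member by marker gate, with 1 point per library and 95% Poisson intervals; open triangles mark the limit that 0 counts allow. Neurod2 and Neurod6 descend from the projection neuron gate through intermediate progenitors to the other gates, and Bhlhe22 has a second raised group of points at the Cajal-Retzius gate, between 132 and 336 CPM.

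A few barcodes carried much of this. In E14.5 wild type, 1 barcode held 18 of the 29 Neurod2 counts of the inhibitory neuron gate and 1 held 32 of the 41 Bhlhe22 counts of the radial glia and astrocyte gate, where Bhlhe22 stood at 11.2% of its projection neuron level and at 2.58% without that barcode. In the E14.5 library labelled knockout, 1 barcode held at most 12 of the 180 Neurod2 counts of the inhibitory neuron gate. There the projection neuron list itself stood at 5.36% of its level in the projection neuron gate, against 0.910% in E14.5 wild type, although the gating keeps barcodes low in that list. Radial glia and astrocyte barcodes held Neurod2 at 1.77% to 4.29% and Neurod6 at 1.99% to 4.76% of the projection neuron level. In E14.5 wild type 1 barcode held 25 of the 44 Neurod2 counts of this gate and 1 held 27 of the 55 Neurod6 counts. In P0 wild type 1 barcode held 19 of the 38 Neurod6 counts. Which part of the low levels is RNA free in the suspension and which is mixed barcodes was not tested. Barcodes that passed no gate held Neurod2 at 56.8% to 72.5%, Neurod6 at 51.3% to 81.7% and Bhlhe22 at 79.5% to 100.1% of the projection neuron level, so the gate holds only some of the barcodes that carry the members.

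The proportion of the 3 genes among their summed counts gives a further description. Free RNA and mixed barcodes can both carry the ratio of projection neurons, and which of them the shares come from was not tested. In the E14.5 library labelled knockout, Neurod2, Neurod6 and Bhlhe22 made up 37.7%, 49.4% and 12.9% of the members' counts in the projection neuron gate, 35.8%, 50.5% and 13.7% in the inhibitory neuron gate (503 counts) and 38.0%, 47.3% and 14.7% in the non-neural gates (258 counts). The shares in the latter 2 gates differ from the first by no more than their exact binomial intervals. In E14.5 wild type the inhibitory neuron gate had Neurod2 at 60.4% (45.3 to 74.2%) against 35.02% in projection neurons, on 48 counts of which 1 barcode held 18 of Neurod2. In P0 knockout the non-neural gates differed, with Neurod2 at 65.9% (54.6 to 76.0%) against 50.5% in projection neurons, on 82 counts of which 1 barcode of the endothelial gate held 19 of Neurod2. Intermediate progenitors had their own make-up, with less Bhlhe22: 2.47% (1.24 to 4.37%) against 11.003% in E14.5 wild type, 7.28% against 12.9% in the E14.5 library labelled knockout and 8.33% against 15.0% in P0 wild type. In P0 knockout the share was 19.3% against 17.9%, within its interval of 14.3 to 25.1%.

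**Figure D4:**
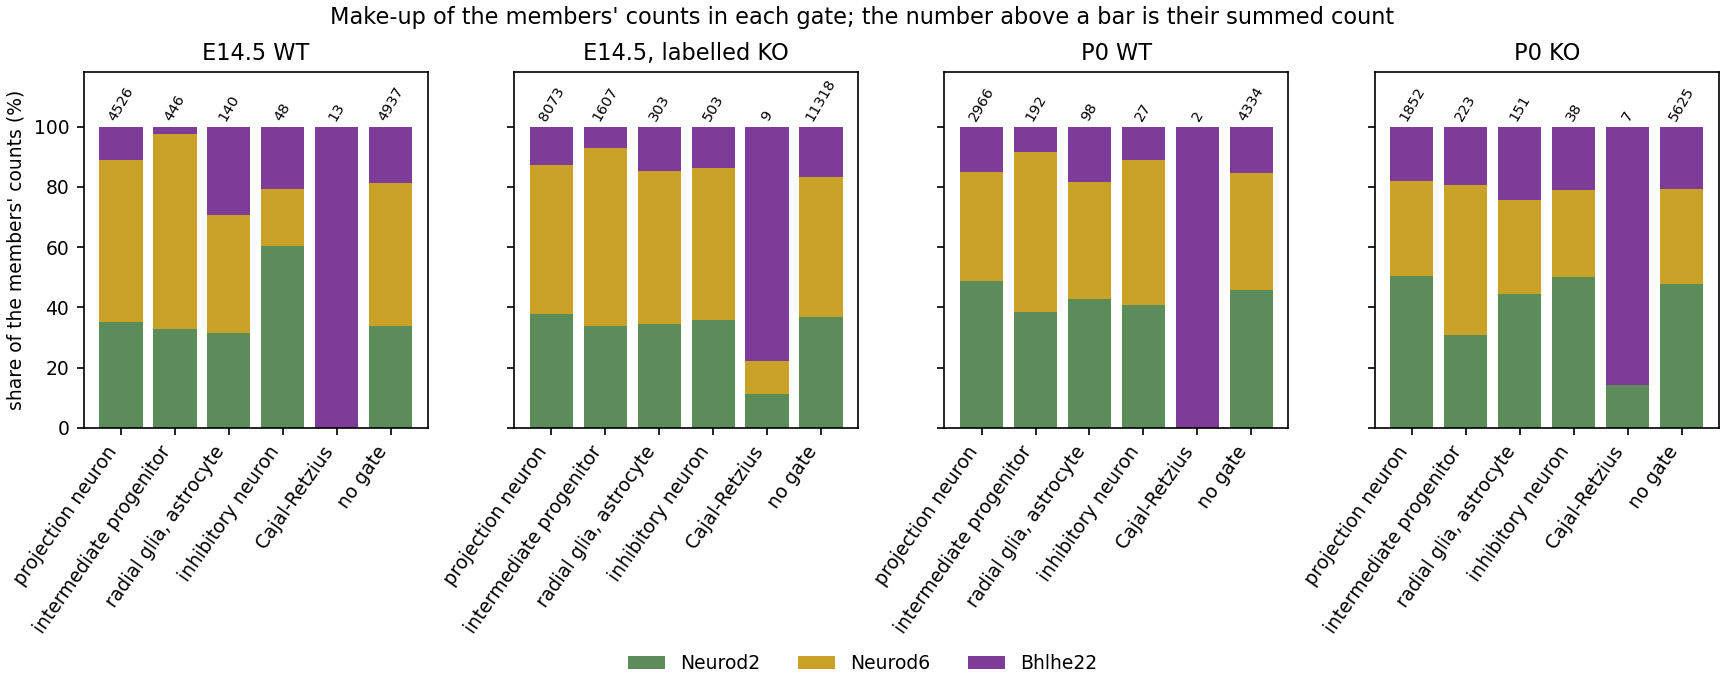
Share of each member in the summed counts of the 3 members, by gate and library, with the summed count above each bar. In the Cajal-Retzius gate nearly all of the few counts are of Bhlhe22, and in intermediate progenitors Neurod6 takes the largest share.

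The Cajal-Retzius gate (Trp73, Lhx1, Lhx5, Ebf3), for the early Reelin-secreting neurons at the cortical surface, held Bhlhe22 at 74.1%, 30.3%, 31.6% and 46.8% of its projection neuron level, with hardly any Neurod2 or Neurod6. The gate took 26 barcodes over all libraries (4, 17, 1 and 4). These held 28 counts of Bhlhe22 in 11 barcodes, 2 of Neurod2 in 2 barcodes and 1 of Neurod6 in 1 barcode. Bhlhe22 stood at 211 CPM (140 to 306) over the pool, Neurod2 at 15.1 CPM (1.83 to 54.5) and Neurod6 at 7.55 CPM (0.191 to 42.1). By library Bhlhe22 had 13, 7, 2 and 6 counts, and the 2 in P0 wild type came from 1 barcode and lie under the floor of 3 counts. Without its barcode with the most Bhlhe22 counts, the E14.5 library labelled knockout stood at 18.3% in place of 30.3%. Reln, which is in no list, had 490 counts in 20 of the 26 barcodes. With gating on unthinned counts the gate held 4, 22, 1 and 8 barcodes with 27, 20, 2 and 15 counts of Bhlhe22 beside 0, 1, 0 and 1 of Neurod2 and 0, 2, 0 and 0 of Neurod6.

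Barcodes that carry Neurod2 and Neurod6, neurons and progenitors together, were also split by Bhlhe22. Among barcodes with at least 2 thinned counts of Neurod2 and Neurod6 together (270, 1617, 418 and 408), 52, 276, 67 and 86 had at least 2 thinned counts of Bhlhe22 and 143, 969, 228 and 224 had 0. This split was chosen after values had been seen and has no test. The 5274 genes with at least 50 counts in every library were ranked by their smallest ratio over the 4 libraries. This rule picks genes that go 1 way in all 4, so that trait of the genes named below was set by the ranking. Which part of the ratios comes from progenitors on the side without Bhlhe22 was not tested. Eomes, of intermediate progenitors, was lower with Bhlhe22 in all 4: 4.10 CPM with Bhlhe22 and 652 CPM without in E14.5 wild type, 49.6 and 553 CPM in the E14.5 library labelled knockout, 50.4 and 229 CPM in P0 wild type and 101.02 and 275 CPM in P0 knockout. The proliferation genes Top2a, Mki67, Pclaf, Hmgb2 and Smc2 were also lower with Bhlhe22 in all 4, with log2 ratios (10 CPM added) of -3.51 to -2.62 for Top2a. The lowest values with Bhlhe22 rest on few counts, so the sizes of these ratios are loose. In P0 wild type Top2a stood there at 5.04 CPM and Mki67 at 0 CPM. In the other direction, Nr4a3, an orphan nuclear receptor gene, stood at 145, 117, 90.8 and 88.6 CPM with Bhlhe22 and at 54.2, 49.8, 35.9 and 43.6 CPM without. The adhesion genes Cntn2 and Flrt3 and the synaptotagmin gene Syt4 were likewise higher in every library. Cntn2 ranged from 0.50 to 0.73 on that log2 scale.

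**Figure D5:**
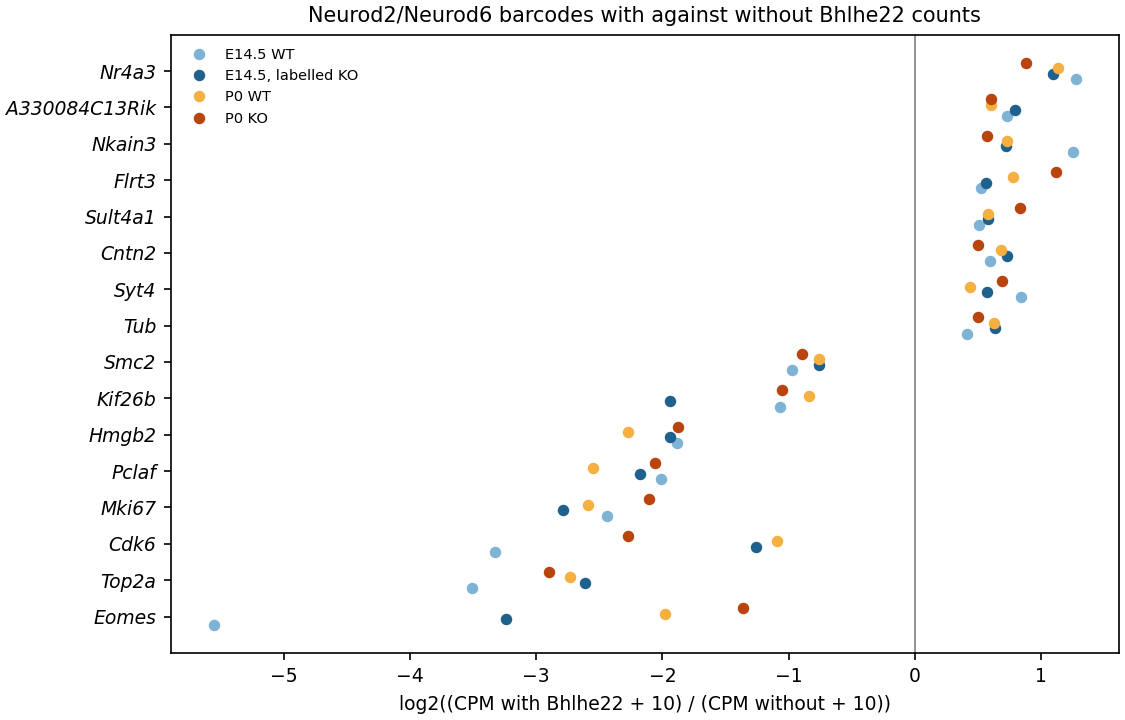
Log2 ratio (10 CPM added to both sides) between barcodes with at least 2 thinned counts of Bhlhe22 and barcodes with 0, among those carrying Neurod2 or Neurod6, for the 8 genes in each direction whose smallest ratio over the 4 libraries was greatest in size; each point is a library. Top2a, Mki67 and Eomes lie at the left in every library, and Nr4a3 lies between 0.88 and 1.27.

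Over whole libraries, where fewer projection neurons and less RNA per neuron cannot be told apart, Neurod2 stood at 623, 573, 592 and 432 CPM, Neurod6 at 916, 753, 482 and 287 CPM and Bhlhe22 at 268, 226, 192 and 181 CPM. The projection neuron gate took 20.5%, 16.9%, 17.8% and 8.78% of the thinned barcodes. P0 knockout was lowest for this share and for all 3 genes. Its log2 ratio to P0 wild type was -0.45 (-0.52 to -0.39) for Neurod2, -0.75 (-0.83 to -0.67) for Neurod6 and -0.09 (-0.20 to 0.02) for Bhlhe22, none past 2-fold against 4.77% of 13846 genes. At E14.5 the ratios were -0.12, -0.28 and -0.24, with 0 of 3 past 2-fold against 6.51% of 14136 genes. Between the ages they were -0.07, -0.92 and -0.48 in wild type, with 0 of 3 past 2-fold against 11.2% of 13270 genes. In the labelled pair they were -0.41, -1.39 and -0.32, with 1 of 3 past 2-fold against 19.1% of 14727 genes.

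Other bHLH genes of the cascade and its inhibitors were taken from a list of 21. Neurog1, Neurog2, Hes1, Hes5, Olig1 and Olig2 of this list are also markers of other gates. The gating therefore keeps them low in the projection neuron gate, and its part in their values was not tested. In that gate 10 of the 21 genes were measured at E14.5, 9 at P0, 9 between ages in wild type and 10 in the labelled pair. Each had at least 30 counts over the pair. At E14.5 Neurog2 was past 2-fold, at 52.1 CPM in the labelled library and 25.5 CPM in wild type, and the median log2 ratio of the measured genes was 0.13, against 0.08 over all genes. This is 1 of 10 genes past 2-fold, where 6.5% of all measured genes were. At P0 Id4, an inhibitor that binds bHLH proteins without contacting DNA, was past 2-fold lower, at 30.6 against 72.7 CPM, and the median was 0.13 against 0.01, with 1 of 9 past 2-fold against 3.43% of all measured genes. Between the ages in wild type Nhlh2 was past 2-fold lower (16.2 against 45.6 CPM), and the median was 0.18 against 0.08, with 1 of 9 past 2-fold against 9.11%. In the labelled pair Nhlh1 (99 counts at E14.5 and 3 at P0, log2 ratio -3.24, interval -5.54 to -1.65), Nhlh2 and Id4 were past 2-fold lower and Hes6 and Tcf4 past 2-fold higher, and the median was -0.07 against 0.01, with 5 of 10 past 2-fold against 16.6%. Tcf4, which encodes an E protein that pairs with these factors, stood at 2765, 2236, 4204 and 4618 CPM, higher in both P0 libraries, and Neurod1 at 150, 187, 171 and 182 CPM.

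A partner and 3 genes named as targets of the members were read from a second list. Prdm8, the partner of Bhlhe22, stood at 217, 133, 123 and 118.1 CPM in the projection neuron gate, a log2 ratio of -0.71 (-0.95 to -0.46) at E14.5 and -0.06 (-0.49 to 0.35) at P0. E14.5 wild type was the high library for Prdm8, whereas Bhlhe22 itself differed there by -0.07. Cdh11, a cadherin gene repressed by Bhlhe22 and Prdm8, stood at 58.4, 118.4, 40.4 and 45.2 CPM, with a log2 ratio of 1.02 (0.62 to 1.43) at E14.5 and 0.16 (-0.56 to 0.87) at P0. It was past 2-fold higher at E14.5, as 1 of the 4 genes of this list, where 6.5% of all measured genes were past 2-fold. Between the ages in the labelled pair it was past 2-fold lower (-1.39). Efna4 and Stim1 had 15 to 48 counts and 19 to 34 counts a library. Stim1 was past 2-fold higher in the labelled pair, at 12.9 CPM at E14.5 and 34.98 CPM at P0. That pair thus had 1 gene of the 4 past 2-fold higher and 1 lower, where 16.6% of all measured genes were past 2-fold.

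Across the 25 gate sums with at least 20 barcodes, the genes whose level was most like that of a member were ranked among 9373 genes outside the gate lists. These sums share libraries and depth, so the correlations describe the pattern and carry no p. Prdm8 ranked first for each member, with Pearson r of 0.97 to Neurod2, 0.96 to Neurod6 and 0.94 to Bhlhe22 on log2(CPM + 10). Zbtb18, a zinc finger repressor gene of cortical neurons, ranked in the first 5 for all 3, at 0.90, 0.91 and 0.91, and stood at 932, 962, 1232 and 1137 CPM in projection neurons. The remaining places went to Cntn2, Tmem74 and Kcnj11 for Neurod2, to Tmem74, Cyria and Cacna2d1 for Neurod6, and to Ttc28, Cntn2 and Cyria for Bhlhe22. The members themselves correlated at 0.96 (Neurod2 and Neurod6), 0.92 (Neurod2 and Bhlhe22) and 0.91 (Neurod6 and Bhlhe22).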

How the data were processed

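Single-cell RNA sequencing libraries of 4 mice were analysed. The deposited values are whole-number counts per gene and barcode that the authors did not scale, as the file contents show, and FastQC 0.12.1, Seurat 5 and R 4.3.2 and the build GRCm39 are named without a role in the submitters' processing notes. The sources used here name no aligner, annotation, strand setting or molecule collapsing, so overlapping and antisense genes cannot be told apart. Barcodes needed at least 500 counts and 300 genes and no more than 10% mitochondrial counts. The matrices hold 5607941, 14423600, 6136897 and 8959784 counts in E14.5 wild type, labelled E14.5 knockout, P0 wild type and P0 knockout. Each was thinned to 1500 counts for gating (141 barcodes were too shallow in the labelled E14.5 knockout and 1 in each other library), and levels came from all counts of gated barcodes. Beside the marker lists given with the results, the gates used Pax6, Hes1, Hes5, Slc1a3, Sox9, Aldoc, Mfge8 and Veph1 for radial glia and astrocytes, Dlx1, Dlx2, Dlx5, Dlx6, Dlx6os1, Gad1, Gad2, Slc32a1, Sp9 and Lhx6 for inhibitory neurons, Olig1, Olig2, Pdgfra, Cspg4 and Sox10 for the oligodendrocyte lineage, C1qa, C1qb, C1qc, Csf1r, Cx3cr1, Tyrobp and Fcer1g for microglia, Cldn5, Pecam1, Cdh5, Kdr, Flt1 and Esam for endothelium, and Col1a1, Col1a2, Col3a1, Dcn and Lum for fibroblasts. A marker of the projection neuron list and its own values are not reported here. No doublet caller was run, and the gate margin and the removal of the top 5% of barcodes stand in for it. Ratios are of CPM sums with conditional binomial intervals, levels carry Poisson and shares Clopper-Pearson intervals, and genes entered a fold background with at least 30 counts over both sums. The scripts were tested on simulated data. Named genes are the members, the list of 21 bHLH genes, 4 partner and target genes and, for each member, the 5 genes with the most alike gate pattern. Members and lists were chosen with earlier results of these data known. Alternatives covered filters, depth, margin, lists, doublets, scaling and seed. Tools were matplotlib 3.10.9, pandas 2.3.3, scipy 1.17.1 and numpy 2.4.6 under Python 3.11.15.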

Additional observations from a re-analysis of the deposited data

Results flagged for a closer look

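In the intermediate progenitor gate, Neurod2 and Neurod6 differed between genotypes in opposite directions at the 2 ages, which is why they are listed here. For Neurod2 the log2 ratio of the labelled library over wild type was 0.46 at E14.5 and -1.11 at P0, 1.57 apart. For Neurod6 it was 0.29 and -0.88, 1.18 apart. The difference between the ages was not tested, since each age holds 1 animal per genotype. The P0 values kept their sign in all 9 alternatives. At E14.5 Neurod6 was positive in all 9 and Neurod2 in 8, but the values shrank in some. With another draw of the thinning Neurod2 was 0.07 and Neurod6 was 0.12. Without the 5% of barcodes with the most counts they were -0.030 and 0.042. In those settings the contrast between the ages rests on P0 alone.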

How the results depend on the processing

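No result was recomputed without a replicate, since each group is 1 library. No paired analysis was possible because no group has more than 1 library. Ratios below are log2 values; those of the projection neuron gate come first. Alternatives on the layer parts, the barcode with the most member counts and the intermediate progenitor gate were chosen after seeing the data. No deep layer ratio was computed at P0, where 6 and 0 barcodes qualified.

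Gating at 750 counts gave 0.12 for Bhlhe22 at E14.5 and -1.24 for Neurod6 between the ages in wild type. Gating on all counts with a margin of 3 gave -0.091, -0.27 and -0.24 for Neurod2, Neurod6 and Bhlhe22 at E14.5, and -0.92 and -0.30 for Neurod6 and Bhlhe22 between the ages in wild type. A margin of 1 gave -0.27 for Bhlhe22 in that age pair, and a margin of 3 gave -0.21 for Neurod6 at P0 and -0.15 and -1.24 for Neurod2 and Neurod6 between the ages in wild type. With 1 gene fewer in the projection neuron list the values were -0.090, -0.23 and 0.14 at E14.5, 0.18, -0.10 and 0.38 at P0, and -0.19 for Neurod2 between the ages in wild type. Without Tbr1 and Fezf2, Neurod6 at E14.5 was -0.54. Without the top 5% of barcodes, Neurod6 at E14.5 was -0.30 and Neurod2 at P0 was 0.043. Another seed gave -0.091 and -0.31 for Neurod2 and Neurod6 at E14.5, 0.055 for Neurod2 at P0 and -0.22 for Bhlhe22 between the ages in wild type. Thinned levels gave -0.92 for Neurod6 between the ages in wild type. Setting the median gene ratio to 1 gave -0.50 for Neurod6 at E14.5, and over whole libraries -0.18 and -0.34 for Neurod2 and Neurod6 at E14.5, -0.15 and -0.996 for the wild-type age pair and -0.48 and -1.47 for the labelled pair. Deep layer barcodes alone gave -0.087 and -0.27 for Neurod2 and Neurod6 at E14.5. Upper layer barcodes alone gave -0.12 for Neurod2 between the ages in wild type, and -0.059 and 0.42 for Neurod2 and Bhlhe22 in the labelled pair. The cause was not tested.

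In the intermediate progenitor gate, the age ratio of Bhlhe22 in wild type turned from 1.56 to -1.24 at 750 counts, -0.77 on all counts, -0.10 without the top 5% and -0.11 with another seed. That of Neurod6 turned to 0.0067 at 750 counts. At E14.5, Neurod2 turned to -0.030 without the top 5%.

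The 3 members summed in the inhibitory neuron gate were 1.44%, 6.02%, 1.18% and 2.12% of the projection neuron level in E14.5 wild type, labelled E14.5 knockout, P0 wild type and P0 knockout. In E14.5 wild type they became 2.11% on all counts, 2.36% without the top 5%, 2.28% with another seed, 0.721% on thinned levels and 0.490% without the barcode with the most member counts. In the labelled E14.5 knockout they became 5.23% at 750 counts, 7.502% on all counts, 8.99% and 4.804% at margins 1 and 3, 6.998% with 1 gene fewer in that list, 6.82% without Tbr1 and Fezf2, 5.33% without the top 5%, 6.95% with another seed, 4.53% on thinned levels and 4.31% as a mean over barcodes. In P0 wild type they became 2.32% with all deposited barcodes, 0.764% at 750 counts, 2.38% at margin 1 and 1.76% without the top 5%. In P0 knockout they became 3.42% at 750 counts, 4.94% on all counts, 3.94% and 1.34% at margins 1 and 3, 3.67% with 1 gene fewer in that list and 1.25% without the top 5%.

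In the non-neural gates the sums were 0.854%, 6.89%, 0.884% and 4.52%. E14.5 wild type became 0.460% at 750 counts and 6.75% at margin 1, and P0 wild type 2.31% at margin 1. The labelled E14.5 knockout became 5.84% at 750 counts, 8.44% at margin 1, 4.27% without the top 5%, 5.002% on thinned levels, 5.24% as a mean over barcodes and 5.87% without the barcode with the most member counts. P0 knockout became 3.50% with all deposited barcodes, 1.24% at 750 counts, 8.83% and 2.85% at margins 1 and 3, 2.88% with another seed, 3.30% on thinned levels and 3.26% without that barcode.

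With genes of at least 1 count in place of 30, the genes past 2-fold in the projection neuron gate numbered 5457 at E14.5, 4924 at P0, 5317 between the ages in wild type and 7167 in the labelled pair, against 607, 263, 744 and 1516. No interval covers the spread between animals.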

Other observations

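Among barcodes with at least 3 counts of Bhlhe22 (158, 436, 165 and 236 in the order E14.5 wild type, labelled E14.5 knockout, P0 wild type, P0 knockout), 4, 8, 1 and 7 held no count of Neurod2 or Neurod6. Reln, the Reelin gene of Cajal-Retzius cells, was counted in 4 of 4, 3 of 8, 0 of 1 and 2 of 7 of them, so that a few barcodes carry its level. It stood at 5202, 2714, 0 and 4233 CPM in them, against 21.6, 48.9, 0.920 and 2.60 CPM in the other barcodes of that count. Markers of the Cajal-Retzius list were counted in 4, 4, 0 and 2 of these barcodes. They were picked after values had been seen, and so few barcodes give no comparison between libraries.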
